A study of Mus musculus with 18 samples.

Results

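The end point of a directed motor neuron differentiation, day 7, was set against its starting point, embryonic stem (ES) cells at day 0, in 6 of the 18 arrays of the series, chosen by their labels. Day 7 had 3 arrays (replicates 3, 4 and 5), which the labels place at the postmitotic motor neuron stage, and day 0 had 3 arrays (replicates 1, 2 and 3) of ES cells. Both groups came from the mouse ES line HBG3, which carries a GFP reporter driven by the promoter of Hb9 (Mnx1), a homeodomain gene of postmitotic motor neurons. No genetic change separated the groups. The day 7 cultures had formed aggregates and had received retinoic acid (RA) and a hedgehog agonist from day 2, and the day 0 cells had received neither. The ES cells were amplified on feeder cells with LIF and serum and moved to gelatin for experiments. RNA was taken from whole cultures and not from sorted GFP-positive cells, and the methods describe the experiment as done in biological triplicate, of a single line.

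Mouse ES cells are held in a self-renewing state by a network of transcription factors around Oct4 (Pou5f1), Nanog and Sox2, grow as tightly joined epithelial colonies, and divide rapidly with a short G1 phase. RA turns aggregated ES cells towards a neural fate of hindbrain and spinal character, and hedgehog signalling gives them the ventral identity from which motor neurons arise. A motor neuron that has left the cell cycle stops copying its DNA, builds an axon from microtubules, motors and neurofilaments, and equips itself with synaptic vesicles and with acetylcholine as its transmitter. Genes for the ribosome, the proteasome and energy metabolism are often treated as constant between such states, and several of them serve as references for quantitative PCR.

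The deposited values were log2 signals, background-adjusted and normalized across all arrays, for 45037 non-control probe sets that stand for 18193 named genes. A log2 difference is day 7 minus day 0, so that a positive value is a higher signal at day 7. A gene was called higher or lower when at least 1 of its probe sets changed at least 2-fold with a limma adjusted p below 0.01. The level quoted for a gene is that of its brightest probe set by the mean of the 18 arrays, given for replicates 3, 4 and 5 at day 7 and for replicates 1, 2 and 3 at day 0. Errors of differences are standard errors (SE) from the fit. Signals under 4 were treated as background. Where all arrays of a group were under it, the fold is a lower bound against that level and is written as at least N-fold. Correlations across probe sets ran from 0.981 to 0.995 among day 7 arrays, from 0.971 to 0.980 among day 0 arrays and from 0.861 to 0.876 between the groups. Between 55.2% and 56.4% of the probe sets lay under background on each array. The beta-actin control probe sets, which compare the 3′ with the 5′ end of the transcript, differed by 2.18 (log2) on day 7 replicate 5, against 1.06 and 0.95 on the other day 7 arrays and 1.28 to 1.80 at day 0. The part that this difference in RNA or amplification played in the results was not tested.

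Of the 18193 genes, 6022 (33.1%) were called between day 7 and day 0. Of these, 3032 (16.7% of all genes) were called higher at day 7, 2937 (16.1%) were called lower, and 53 had probe sets in both directions. In the 11588 genes with a mean at background or above in either group (genes with signal), 25.5% were called higher and 25.0% lower. On the brightest probe sets, the day 7 and day 0 arrays did not overlap for 47.1% of the genes. The brightest probe set was called higher for 2602 genes and lower for 2533. Of these, 964 were more than 10-fold higher and 669 more than 10-fold lower, counted on the signals as deposited and not as bounds against background. For 798 genes the rise started from day 0 arrays that were all under background, and for 673 genes the fall ended with all day 7 arrays under it. A fit to the 6 arrays alone, in which the spread rests on fewer samples, called 1742 genes higher and 1671 lower. With the arrays centred on the 16 reference genes described further on, 4685 genes were called higher and 2224 lower, 67.8% of the called genes being higher against 50.8% with the values as deposited.

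The 10 largest rises were those of Fabp7, Kbtbd11, Hoxb5, Dcx, Ednrb, Pantr1, Pcp4, Igfbp5, Tmem255a and Gpm6a. Fabp7, the brain fatty acid-binding protein of radial glia, had log2 signals of 13.52, 13.58 and 13.78 at day 7, against 2.24, 2.45 and 2.80 at day 0. It was thus at least 791-fold higher at day 7 (log2 difference 11.13 ± 0.36, limma adjusted p = 1.1e-10). Hoxb5, a Hox gene expressed in the caudal hindbrain and spinal cord, had 12.85, 12.66 and 12.33 at day 7, against 2.53, 2.46 and 2.48 at day 0, at least 392-fold higher. Ednrb, the endothelin B receptor, was at least 457-fold higher, and Gpm6a, a neuronal membrane glycoprotein, at least 263-fold higher. The 10 largest falls were those of Ooep, Fgf4, Mymx, Pou5f1, Hspb1, Tdgf1, Ifitm1, Pla2g1b, Zfp42 and Utf1, and most of these genes are known for their expression in ES cells or oocytes. Fgf4, a growth factor that ES cells secrete, had 2.86, 2.82 and 2.96 at day 7, against 13.23, 13.19 and 13.11 at day 0, at least 579-fold lower. Ooep, an oocyte-expressed protein, was at least 397-fold lower.

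Pluripotency genes fell. Of 24 pluripotency genes, 23 were called lower at day 7, against 16.1% of all genes, with a median log2 difference of -7.77 beside 0.00 over all genes. Pou5f1 had log2 signals of 2.28, 2.23 and 2.50 at day 7, against 12.57, 12.18 and 11.78 at day 0, so that it was at background in every day 7 array and at least 289-fold lower (limma adjusted p = 1.4e-08). Nanog averaged 4.35 at day 7 and 13.05 at day 0, a difference of -8.70 ± 0.55. Zfp42 (Rex1) was at least 171-fold lower, and Sall4 fell by 6.67 ± 0.11. Sox2, which neural progenitors also use, was the member that was not called. It had 11.53, 11.39 and 12.12 at day 7, against 12.43, 12.39 and 12.49 at day 0, a difference of -0.75 with a 95% interval of -1.38 to -0.12 (limma adjusted p = 0.071).

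The motor neuron label was borne by most, but not all, of its defining markers. Of 13 measured motor neuron genes, 9 were called higher (69.2%, beside 16.7% of all genes), 1 lower (7.7%, beside 16.1%) and 3 neither (median 4.17). The higher calls of Isl2, Ache and Prph were lost in the fit to 6 arrays. Isl1, the LIM homeodomain factor that specifies motor neurons, had 11.43, 11.51 and 11.79 at day 7, against 3.31, 4.17 and 4.67 at day 0 (difference 7.53 ± 0.38, limma adjusted p = 7.3e-09). Mnx1 had 5.67, 6.84 and 7.44 at day 7 and 2.54, 2.54 and 2.35 at day 0, at least 6.28-fold higher. Lhx4 and Lhx3, the LIM factors of early motor neurons, were at least 161-fold and at least 14.7-fold higher. Slc18a3, the vesicular acetylcholine transporter, was at least 8.19-fold higher, while Chat, the enzyme that makes acetylcholine, had 2.31, 2.88 and 2.24 at day 7 and 2.24, 2.23 and 2.24 at day 0 and was at background in all 6 arrays. Slc5a7, the choline transporter, was not called (difference 0.93 ± 0.27, limma adjusted p = 0.02). Foxp1, a factor of limb-level motor neurons, was called lower on its brightest probe set (-1.35 ± 0.35), a call that ended when any array other than day 0 replicate 3 was left out and in the fit to 6 arrays. Genes common to all neurons rose. All 20 pan-neuronal genes were called higher (16.7% of all genes were), with a median of 5.60, and Dcx, the microtubule-binding protein doublecortin of young neurons, was at least 416-fold higher.

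Markers of other cells moved with the day as well, and their part in each result below was not tested. In such whole-culture RNA, fewer cells of a type and less RNA per cell cannot be told apart. Of 14 neural progenitor genes, 11 were called higher (78.6%, beside 16.7% of all genes, median 2.72), 6 of them in the fit to 6 arrays. The summed linear signal of the 14 was 39103 to 39778 at day 7 and 6089 to 9751 at day 0. Its largest part came from Vim and, at day 7, also from Fabp7. Vim, vimentin, had 13.49, 13.60 and 13.63 at day 7 and 11.97, 12.71 and 12.84 at day 0. Besides Fabp7, Nkx2-2, a ventral progenitor factor, had 10.63, 10.68 and 10.65 at day 7, against 2.37, 2.31 and 2.27 at day 0. Pax6 was not called and its groups overlapped. Olig2, a motor neuron progenitor factor, had 7.69, 9.09 and 10.34 at day 7 and 7.48, 7.04 and 6.96 at day 0 and was not called (limma adjusted p = 0.011), but was without day 7 replicate 3. Of 11 glial genes, 5 were called higher (45.5%, beside 16.7% of all genes), 2 of them in the fit to 6 arrays. The summed linear signal of the 11 was 4030 to 12032 at day 7 and 556 to 1123 at day 0. Gfap, Mag and Cspg4 were at background in all 6 arrays. The day 7 arrays differed from each other here: Sox10, an oligodendrocyte and neural crest factor, had 6.88, 9.04 and 11.05 at day 7 and 2.29, 2.29 and 2.26 at day 0, and its call was lost in the fit to 6 arrays. Of 15 spinal interneuron genes, 3 were called higher, a share of 20.0% beside 16.7% of all genes. Lhx1 was at least 34.3-fold higher. Gata3 had 6.89, 6.87 and 5.66 at day 7 and 2.40, 2.23 and 4.23 at day 0, and its call was lost in the fit to 6 arrays. Gata2 differed by 1.60 ± 0.42 on its brightest probe set, which was not called, and was called higher on another. Of the dorsal markers, Tlx3, Lhx2 and Lhx9 were at background throughout. Lbx1 had 2.24, 2.62 and 7.33 at day 7 and Lmx1b had 5.95, 4.12 and 2.43, with all day 0 arrays of both under background. The GABA synthesis genes Gad1 and Gad2 had 6.91 and 6.33 on day 7 replicate 5 and were under background on the other day 7 arrays, while at day 0 Gad1 reached 4.39 and Gad2 2.32. None of these 4 was called. Of 12 extraembryonic endoderm genes 1 was called higher and 1 lower (8.3% each, beside 16.7% and 16.1% of all genes). Gata6, Sox17, Afp and Ttr were at background in all 6 arrays. The summed linear signal of the 12 was 106 to 261 at day 7 and 110 to 150 at day 0. Foxa2, the gene called higher, had 7.63, 7.60 and 5.26 at day 7 and 3.79, 2.41 and 3.73 at day 0. It was the only member above background on any day 7 array, and its call was lost in the fit to 6 arrays. Of 14 genes of mesoderm, muscle, blood and endothelium 2 were called lower (14.3%, beside 16.1% of all genes). None was above background on any day 7 array.

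Of 11 markers of feeder fibroblasts, 3 were called lower at day 7 (27.3%, beside 16.1% of all genes) and 1 higher (median -0.70), 5 were called lower without day 0 replicate 1 and 1 in the fit to 6 arrays, and their summed linear signal was 288 to 459 at day 7 and 3175 to 7951 at day 0. Without Fn1, fibronectin, the sum was 224 to 243 at day 7 and 587 to 4815 at day 0. S100a4 had 2.23 in each day 7 array and 2.23, 11.29 and 9.92 in the ES cell arrays, so that day 0 replicate 1 stood apart from the other 2 day 0 arrays. S100a4 was not called (limma adjusted p = 0.045) but was called without day 0 replicate 1. Lum and Fap were at background in all 6 arrays.

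The genes of cell division fell almost without exception. Of 39 DNA replication genes, 37 were called lower, with a median of -2.38, and of 29 mitosis genes all 29 were called lower, with a median of -2.70. No member of either list was called higher. In the fit to 6 arrays, 30 and 25 were still called lower. The promoters of 3 such genes, each the 250 bases before the RefSeq start (build GRCm38.p6), are shown for the short motifs that cell cycle promoters are known to carry. The first 2 hold the CCAAT box, CCAAT, and the core of the cell cycle homology element, TTTGAA, and the third an E2F-type motif, TTTCCCGC. Capitals mark every match on either strand, so that CCAAT on the other strand reads ATTGG, and likewise TTTGAA reads TTCAAA and the E2F-type motif reads GCGGGAAA. In Ube2c a pair of CCAAT matches on opposite strands overlap in CCAATTGG.
Top2a, chr11:99024190-99024439, minus strand: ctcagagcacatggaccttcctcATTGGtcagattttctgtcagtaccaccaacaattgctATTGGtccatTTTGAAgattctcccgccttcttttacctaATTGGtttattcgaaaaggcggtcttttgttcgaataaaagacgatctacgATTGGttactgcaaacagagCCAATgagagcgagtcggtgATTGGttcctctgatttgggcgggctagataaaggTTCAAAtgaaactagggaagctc
Ube2c, chr2:164769679-164769928, plus strand: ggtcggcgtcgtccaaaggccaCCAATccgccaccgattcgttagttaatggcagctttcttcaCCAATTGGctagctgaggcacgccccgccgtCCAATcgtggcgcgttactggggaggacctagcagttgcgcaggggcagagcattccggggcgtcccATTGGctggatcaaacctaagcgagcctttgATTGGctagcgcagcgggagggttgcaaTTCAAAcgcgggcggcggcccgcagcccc
Cdc6, chr11:98907901-98908150, plus strand: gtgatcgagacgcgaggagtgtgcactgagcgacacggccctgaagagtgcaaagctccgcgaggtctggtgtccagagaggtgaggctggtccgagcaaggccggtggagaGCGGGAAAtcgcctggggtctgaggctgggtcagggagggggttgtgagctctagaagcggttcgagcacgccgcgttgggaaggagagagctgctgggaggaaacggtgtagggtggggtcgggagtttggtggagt
Top2a (topoisomerase II alpha, which untangles chromosomes) and Ube2c (a ubiquitin-conjugating enzyme of mitotic exit) were chosen after their values were seen, as mitosis genes with the most matches. Top2a has 6 CCAAT and 2 TTTGAA matches, Ube2c 6 and 1, and Cdc6 (which loads the replicative helicase) 1 TTTCCCGC match. A CCAAT match was present in 18 of 24 mitosis promoters with a RefSeq sequence (75.0%) and in 20 of 31 DNA replication promoters (64.5%), against 35.7% of the 14452 tested genes with one and 34.5% of all 27025 promoters. TTTGAA was present in 9 of the 24 mitosis promoters (37.5%), against 11.9% of tested genes and 16.3% of all promoters. In the 31 replication promoters TTTGAA was present in 4 (12.9%), near the share of tested genes. TTTCCCGC was present in 3 of the 31 replication promoters (9.7%), against 1.4% of tested genes and 0.9% of all promoters. It was present in 0 of the 24 mitosis promoters. In 30 promoters of the ribosome biogenesis genes described further on, it was present in 2 (6.7%). These are matches of letters, and no binding was measured here.

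Top2a had log2 signals of 9.31, 9.71 and 9.27 at day 7, against 12.19, 12.14 and 11.87 at day 0 (difference -2.64 ± 0.11, limma adjusted p = 1.5e-09). Ube2c had 10.55, 10.81 and 10.71 at day 7, against 12.25, 11.92 and 12.39 at day 0 (-1.50 ± 0.18). Cdc6 had 5.94, 5.75 and 6.75 at day 7, against 10.51, 9.77 and 10.51 at day 0 (-4.12 ± 0.29). In all 3 genes the groups were far apart, and for Top2a and Ube2c the day 7 signal stayed well above background. Among the replication genes the largest fall was that of Orc1, the largest subunit of the origin recognition complex, at background in every day 7 array and at least 30.6-fold lower. Mcm10 and Pole, a helicase cofactor and the leading-strand polymerase, fell by 4.75 ± 0.44 and 4.21 ± 0.40. Among the mitosis genes the largest falls were those of Anln (anillin, of the cleavage furrow), by 4.69 ± 0.22, and Espl1 (separase), by 4.03 ± 0.49.

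The genes that govern exit from the cycle did not move in 1 direction. Of 17, 4 were called higher and 4 lower, 23.5% each, beside 16.7% and 16.1% of all genes and 25.5% and 25.0% of genes with signal. The median was 0.54, and only 2 were called higher without day 7 replicate 4. Cdkn2d, the p19 inhibitor of Cdk4 and Cdk6, had 8.09, 8.20 and 7.31 at day 7, against 4.91, 5.65 and 4.95 at day 0 (difference 2.70 ± 0.46, limma adjusted p = 4.6e-04). Cdkn1c, the p57 inhibitor, was 4.15 ± 0.82 higher, a call lost in the fit to 6 arrays. The D cyclins, which drive G1, were split. Ccnd1 fell by 2.91 ± 0.31 and Ccnd3 fell by 2.89 ± 0.38, while Ccnd2 was 2.68 ± 0.60 higher. The call of Ccnd1 was lost in the fit to 6 arrays, and that of Ccnd2 was lost there and without day 7 replicate 3 or 4. Gadd45b, a growth arrest and DNA damage gene, was at background at day 7 and at least 74.7-fold lower.

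**Figure D1:**
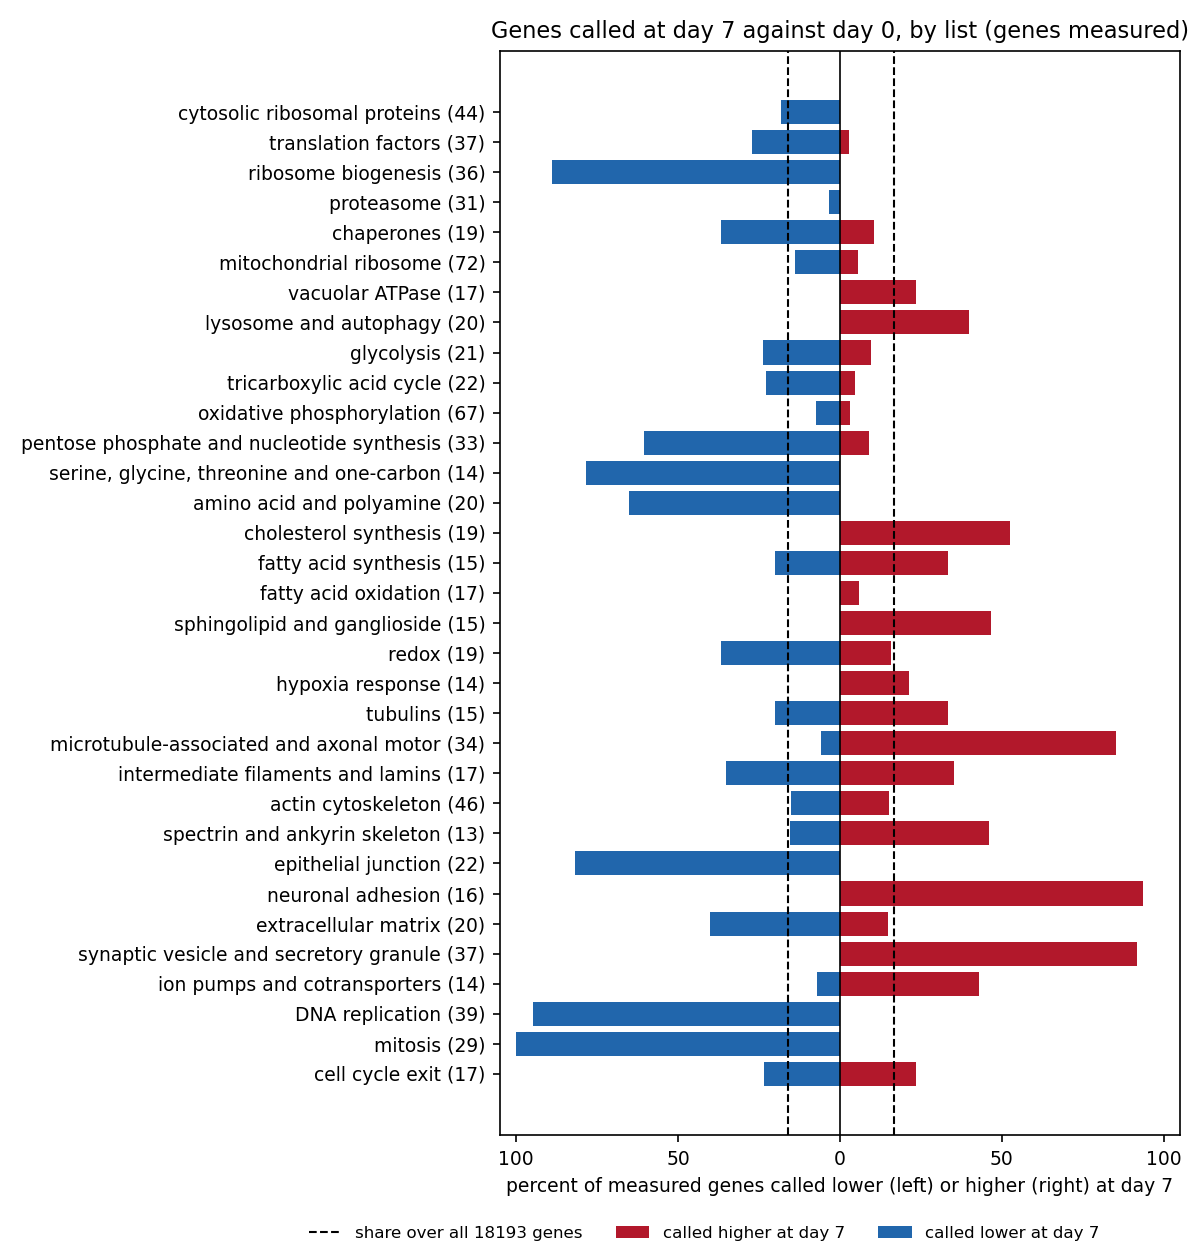
Share of the measured members of each gene list that were called higher (right of 0, in percent) or lower (left of 0, in percent) at day 7 against day 0, with the dashed lines at the shares over all 18193 genes (16.7% higher, 16.1% lower). The replication, mitosis, ribosome biogenesis and epithelial junction bars reach far to the left, and the neuronal adhesion, synaptic and axonal motor bars far to the right.

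Genes used as quantitative PCR references were not uniformly level. Of 16 measured, 7 were called, 6 lower and 1 higher at day 7, with a median of -0.35 that centring on these genes turned to 0.19. In the fit to 6 arrays all 7 lost their call, and with the arrays centred on these 16 genes 2 were called lower and 2 higher. Ywhaz, a 14-3-3 protein, differed by 0.10 ± 0.09 and Pgk1, a glycolytic kinase, by 0.19 ± 0.21, and Actb, beta-actin, differed by -0.17 ± 0.11. By contrast Hprt, the purine salvage enzyme, had 10.91, 10.46 and 10.90 at day 7, against 12.40, 11.69 and 12.21 at day 0 (-1.35 ± 0.19, limma adjusted p = 7.6e-05). Tbp, the TATA-binding protein, fell by 1.36 ± 0.23, Polr2a, the large subunit of RNA polymerase II, fell by 1.27 ± 0.24, and B2m, the light chain of MHC class I, fell by 2.21 ± 0.35. Ppib, cyclophilin B, was called higher (1.20 ± 0.31), a call that any single array other than day 7 replicate 5 ended when left out. Because the values were normalized to a common distribution, each difference is relative to the rest of the transcripts. Their mean changed by -0.54, so that centring the arrays on them turns the sign of any list median between -0.54 and 0.

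Genes for ribosome assembly fell, and genes for the ribosome itself were called lower about as often as all genes. Of 44 measured cytosolic ribosomal protein genes, 8 were called lower (18.2%, beside 16.1% of all genes and 25.0% of genes with signal) and none higher. Their median was -0.18 (0.36 with the arrays centred on the reference genes), and 41 differences were negative and 2 positive. Of the 41 members that were above background in both groups, 38 had a 95% interval of the difference within 2-fold. The median level of these 41 was 13.60 at day 7 and 13.83 at day 0, close to the highest signals of any gene on the arrays (14.32 to 14.57). Rps16 and Rpl37 were under background in both groups and Rpl39 at day 7, and these gave no measure of a change. The exceptions with the brightest probe set called were Rpl12, with 5.51, 5.58 and 6.53 at day 7 and 9.99, 8.93 and 9.71 at day 0, and Rps25 and Rpl14, which fell by 2.09 ± 0.24 and 1.48 ± 0.09. Ribosomal protein probe sets can also match processed pseudogenes, so that these 3 are uncertain. Of 36 ribosome biogenesis genes, 32 were called lower and none higher, with a median of -1.83, and 20 were called lower in the fit to 6 arrays and 27 with the arrays centred on the reference genes. Polr1a, the catalytic subunit of RNA polymerase I, had 4.44, 5.04 and 4.63 at day 7, against 7.86, 7.37 and 8.18 at day 0 (-3.10 ± 0.62, limma adjusted p = 0.0016). Rrp12 and Heatr1, factors of pre-rRNA processing, fell by 3.37 ± 0.55 and 3.03 ± 0.30, and Polr1b, the second polymerase I subunit, fell by 3.30 ± 0.64 but was not called in the fit to 6 arrays.

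Of 37 translation factors, 10 were called lower (27.0%, beside 16.1% of all genes and 25.0% of genes with signal) and 1 higher. The median was -0.45, or 0.09 with the arrays centred on the reference genes. Eif4ebp1, a repressor of cap-dependent initiation that mTOR inactivates, had 7.99, 7.84 and 9.12 at day 7, against 12.15, 12.02 and 12.71 at day 0 (-3.97 ± 0.41, limma adjusted p = 5.7e-06). Eif1b was the member called higher, by 2.46 ± 0.26. Of 72 mitochondrial ribosomal protein genes, 10 were called lower, 4 higher and 1 in both directions (median -0.49, or 0.05 centred on the reference genes), shares close to or under those of all genes, and 5 were called lower in the fit to 6 arrays. Mrpl1 fell by 2.16 ± 0.15.

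Of 31 proteasome genes, 1 was called lower (3.2%, beside 16.1% of all genes) and none higher. The median was 0.02 (0.56 with the arrays centred on the reference genes), and for 25 the 95% interval lay within 2-fold. The member called was Psmd11, a lid subunit, at -1.08 ± 0.14, a call that day 0 replicate 1 or day 7 replicate 5 ended when left out. Of 19 chaperone genes, 7 were called lower (36.8%, beside 16.1% of all genes and 25.0% of genes with signal) and 2 higher. The median was -0.37, or 0.17 centred on the reference genes. The largest fall was that of Trap1, the mitochondrial Hsp90, which fell by 2.24 ± 0.28. Of 17 vacuolar ATPase genes, which acidify lysosomes and load synaptic vesicles, 4 were called higher and none lower (median 0.93). This share was 23.5%, beside 16.7% of all genes and 25.5% of genes with signal. With the arrays centred on the reference genes, 12 were called higher. Atp6v1g2, the G subunit of neurons, had 9.40, 8.92 and 10.37 at day 7, against 2.82, 2.55 and 2.33 at day 0, at least 47.3-fold higher, and Atp6v0e2 was 4.85 ± 0.34 higher. Atp6v0a1, which lost its call without day 0 replicate 2, was 3.00 ± 0.64 higher. Of 20 lysosome and autophagy genes, 8 were called higher (40.0%, beside 16.7% of all genes), 4 of them in the fit to 6 arrays, and none lower. On the brightest probe sets 10 differences were positive and 10 negative, with a median of -0.01. Gabarap, which couples autophagosomes to their cargo, was 2.03 ± 0.23 higher, a call lost in the fit to 6 arrays.

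**Figure D2:**
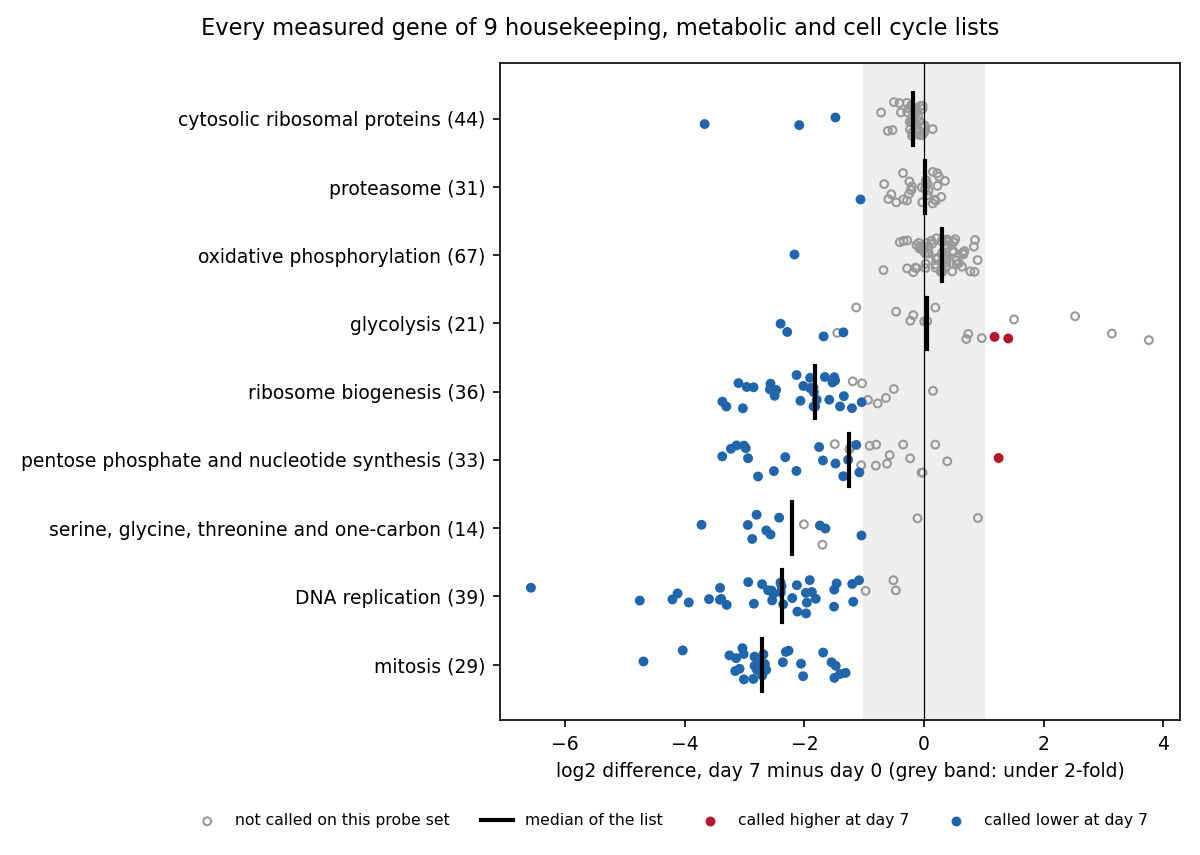
Log2 difference, day 7 minus day 0, of every measured member of each list on its brightest probe set, 1 point per gene, with the median of each of the 9 lists as a black bar, changes under 2-fold as a grey band and filled points for probe sets that were called. Members of the proteasome, ribosomal protein and oxidative phosphorylation lists crowd around 0, while all 29 mitosis genes lie left of the 2-fold band.

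Of 21 glycolysis genes, 5 were called lower (23.8%, beside 16.1% of all genes and 25.0% of genes with signal) and 2 higher (9.5%). The median was 0.05 (0.59 with the arrays centred on the reference genes). Without single arrays 3 to 5 were called lower and 0 to 2 higher, and in the fit to 6 arrays 2 lower and 1 higher. Hk2, the hexokinase of growing cells, had 10.92, 10.45 and 10.17 at day 7, against 12.48, 12.07 and 12.02 at day 0 (-1.68 ± 0.29, limma adjusted p = 5.2e-04). Hk1, the hexokinase of brain, had 9.52, 9.07 and 9.91 at day 7, against 8.46, 7.48 and 8.33 at day 0 (1.41 ± 0.31, limma adjusted p = 0.0029). The groups did not overlap for either gene, in opposite directions. Both calls were lost in the fit to 6 arrays, and that of Hk1 also without day 0 replicate 2, day 7 replicate 3 or day 7 replicate 5. Slc16a1, the lactate transporter MCT1, fell by 2.40 ± 0.23, and Eno3, the muscle enolase, fell by 2.29 ± 0.35, a call lost in the fit to 6 arrays. Aldoc, the brain aldolase, had a mean of 10.36 ± 0.35 at day 7 (SD, n = 3), against 8.76, 5.99 and 5.04 at day 0, a spread of the day 0 arrays at which its difference of 3.76 ± 1.31 was not called (limma adjusted p = 0.046).

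Of 22 tricarboxylic acid cycle genes, 5 were called lower (22.7%, beside 16.1% of all genes and 25.0% of genes with signal) and 1 higher. Suclg2, the GTP-forming subunit of succinyl-CoA ligase, had 6.79, 7.13 and 7.45 at day 7, against 9.75, 9.46 and 9.39 at day 0 (-2.41 ± 0.24), and Dlat, of the pyruvate dehydrogenase complex, fell by 1.71 ± 0.16. Of 67 oxidative phosphorylation genes, 2 were called higher and 5 lower, both under the shares of all genes, and for 51 of the 66 above background in both groups the 95% interval lay within 2-fold. The median of the list was 0.30 and 50 of the 67 differences were positive. With the arrays centred on the reference genes the median was 0.84 and 25 were called higher, so that the number called depends on the scaling. Cox7c was the member with its brightest probe set called, at -2.18 ± 0.42, and was not called in the fit to 6 arrays.

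Most genes of nucleotide synthesis and of one-carbon metabolism fell. Of 33 genes of the pentose phosphate pathway and nucleotide synthesis, 20 were called lower and 3 higher (median -1.25), and 14 were called lower in the fit to 6 arrays. Gart, a trifunctional enzyme of purine synthesis, had 7.78, 8.38 and 7.81 at day 7, against 11.52, 10.77 and 11.08 at day 0 (-3.13 ± 0.24, limma adjusted p = 3.7e-07). Cad, which starts pyrimidine synthesis, had 7.57, 7.68 and 8.30 at day 7, against 11.31, 10.36 and 11.56 at day 0 (-3.23 ± 0.46). Prps2 and Pfas, the phosphoribosyl pyrophosphate synthetase and a further purine enzyme, fell by 3.37 ± 0.34 and 3.01 ± 0.29. Rpia, ribose 5-phosphate isomerase, went the other way and was 1.25 ± 0.14 higher. Of 14 genes of serine, glycine, threonine and one-carbon metabolism, 11 were called lower and none higher (median -2.21). Shmt1, the cytosolic serine hydroxymethyltransferase, had 6.99, 7.63 and 6.69 at day 7, against 11.15, 10.79 and 10.51 at day 0 (-3.72 ± 0.25), and Mthfd1, which interconverts folate forms, fell by 2.95 ± 0.18. Gldc, the glycine decarboxylase, fell by 2.87 ± 0.41, a call lost in the fit to 6 arrays.

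Of 20 genes of amino acid uptake, amino acid metabolism and polyamine synthesis, 13 were called lower and none higher (median -0.99), 7 of them in the fit to 6 arrays. Slc1a5, the glutamine transporter ASCT2, had 2.90, 2.87 and 2.74 at day 7, against 8.76, 8.86 and 7.58 at day 0, at least 21.1-fold lower. Bcat2, the mitochondrial branched-chain aminotransferase, had 4.11, 4.19 and 3.70 at day 7, against 9.75, 8.82 and 9.38 at day 0 (-5.32 ± 0.53, limma adjusted p = 4.0e-06). Bcat1, its cytosolic counterpart, differed by -0.78 ± 0.17 and was under the 2-fold limit. Slc7a3, a cationic amino acid transporter, fell by 4.64 ± 0.48.

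Of 19 cholesterol synthesis genes, 10 were called higher and none lower (median 0.86), but only 2 in the fit to 6 arrays, and 5 without day 0 replicate 2 or day 7 replicate 3 and 6 without day 7 replicate 4. Hsd17b7, a sterol reductase, had 10.08, 9.20 and 9.60 at day 7, against 7.60, 7.19 and 7.99 at day 0 (2.03 ± 0.24, limma adjusted p = 1.9e-05), a call lost in the fit to 6 arrays. Of 15 sphingolipid and ganglioside genes, 7 were called higher (46.7%, beside 16.7% of all genes) and none lower, the same number as in the fit to 6 arrays. St8sia1, the GD3 synthase, had 9.98, 10.03 and 10.30 at day 7, against 4.07, 5.40 and 4.44 at day 0 (5.47 ± 0.33, limma adjusted p = 3.5e-08). St8sia3, a further sialyltransferase, was 4.58 ± 0.58 higher and B4galnt1, which makes GM2 and GD2, was at least 4.18-fold higher. Smpd1, the acid sphingomyelinase, was 3.13 ± 0.40 higher.

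Of 15 fatty acid synthesis and elongation genes, 5 were called higher (33.3%, beside 16.7% of all genes) and 3 lower (20.0%, beside 16.1%). Fads1, a desaturase of polyunsaturated fatty acids, was 1.53 ± 0.22 higher, and Acacb, the mitochondrial acetyl-CoA carboxylase, fell by 3.82 ± 0.27. Of 17 fatty acid oxidation genes, 1 was called higher (5.9%, beside 16.7% of all genes) and none lower. Of 19 redox genes, 7 were called lower (36.8%, beside 16.1% of all genes and 25.0% of genes with signal) and 3 higher. In the fit to 6 arrays 3 were called lower, and without day 7 replicate 4 there were 4. Nqo1, a quinone reductase and target of Nrf2, had 6.45, 6.87 and 6.52 at day 7, against 10.57, 11.05 and 10.96 at day 0 (-4.25 ± 0.27, limma adjusted p = 6.5e-08). Gstm5, the glutathione transferase of brain, was 4.61-fold higher, while Gstm1 fell by 2.04 ± 0.30. Of 14 hypoxia response genes, 3 were called higher and none lower, a share of 21.4% beside 16.7% of all genes and 25.5% of genes with signal. Among them was Egln1, an oxygen-sensing prolyl hydroxylase, at 3.15 ± 0.52.

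Epithelial junction genes fell and neuronal adhesion genes rose. Of 22 epithelial junction genes, 18 were called lower at day 7 and none higher (median -3.67), 14 of them in the fit to 6 arrays. Epcam had 2.84, 3.04 and 3.19 at day 7, against 11.94, 11.69 and 11.72 at day 0, at least 220-fold lower (limma adjusted p = 1.0e-11). Cdh1, E-cadherin, had 7.04, 6.51 and 2.86 at day 7, against 12.51, 12.75 and 12.47 at day 0, so that day 7 replicate 5 was under background and the other 2 day 7 arrays were not. Its difference was -7.11 ± 0.83, and the call was lost in the fit to 6 arrays. Cldn6 and Cldn7, claudins of tight junctions, were at least 132-fold and at least 59.0-fold lower. Of 16 neuronal adhesion genes, 15 were called higher and none lower (median 5.54). Chl1 had 10.05, 10.24 and 10.69 at day 7, against 2.27, 2.27 and 2.24 at day 0, at least 80.0-fold higher, and Astn1, astrotactin, was at least 94.4-fold higher. Ncam1, which ES cells already express, had 13.21, 13.00 and 13.26 at day 7, against 9.58, 10.28 and 10.49 at day 0 (3.04 ± 0.37).

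Of 20 extracellular matrix genes, 8 were called lower (40.0%, beside 16.1% of all genes) and 3 higher (15.0%, beside 16.7%), with a median of -0.79. The basement membrane genes Lamb1 and Lama5 (laminin chains) and Nid2 (nidogen) gave the largest falls. Lamb1 had 4.73, 4.63 and 4.58 at day 7, against 9.89, 9.78 and 9.61 at day 0 (-5.12 ± 0.24, limma adjusted p = 4.0e-09), Lama5 was at least 23.4-fold lower, and Nid2 fell by 5.11 ± 0.55. Fn1, fibronectin, which is also in the feeder list, fell by 4.41 ± 0.56, beside the summed feeder signal of 288 to 459 at day 7 and 3175 to 7951 at day 0, whose part in these falls was not tested. Ncan, neurocan, a proteoglycan of neural tissue, had 11.89, 11.99 and 11.98 at day 7, against 6.64, 5.39 and 5.94 at day 0 (5.96 ± 0.31).

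**Figure D3:**
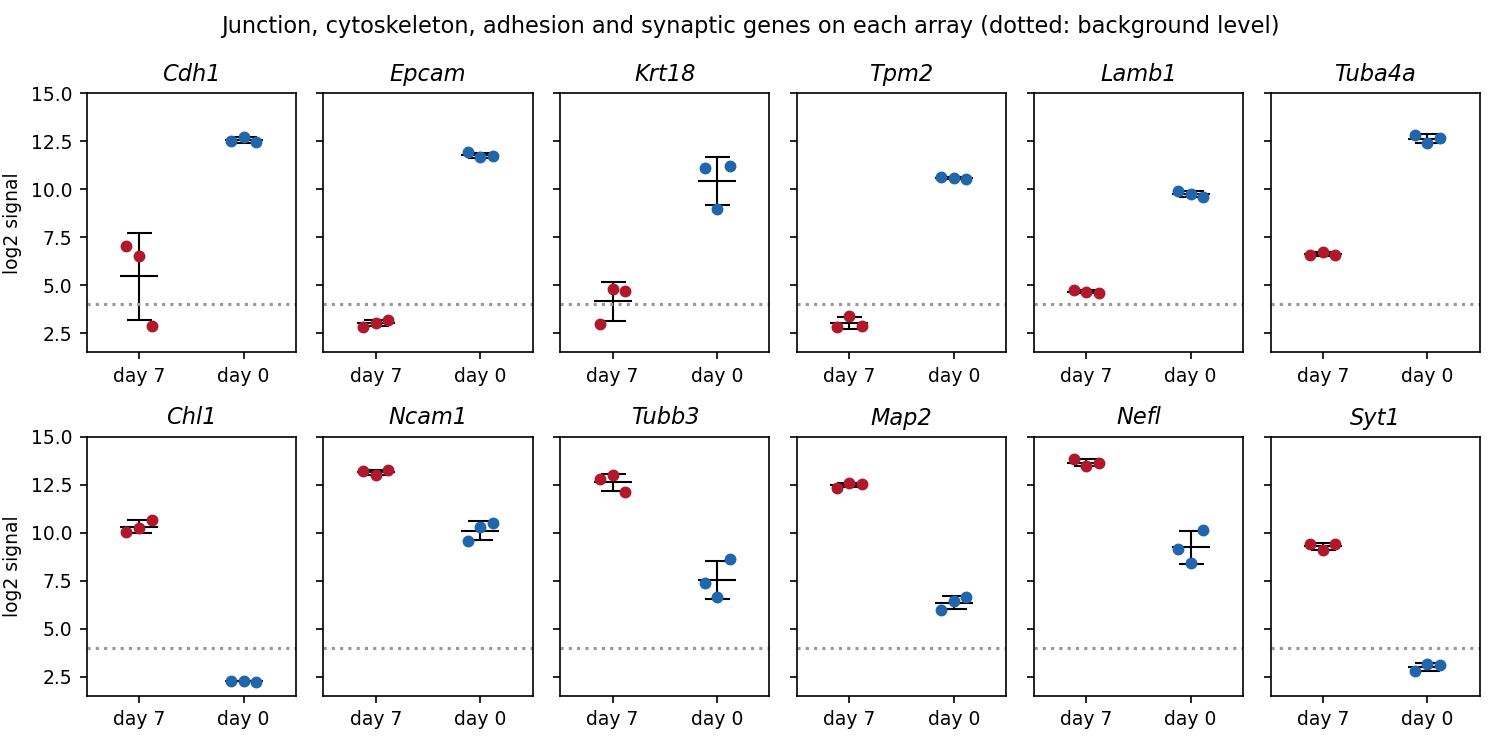
Log2 signal of 12 structural genes on each of the 3 day 7 arrays (left column of points in each panel) and the 3 day 0 arrays (right column), with the mean ± SD in black (n = 3 each) and the background level of 4 dotted. Cdh1 is the gene in which 1 day 7 array, replicate 5, lies apart, and Tuba4a is lower at day 7 while Tubb3 is higher.

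Cytoskeletal genes moved in both directions. Of 15 tubulin genes, 5 were called higher (33.3%, beside 16.7% of all genes) and 3 lower (20.0%, beside 16.1%), with a median of 0.21. In the fit to 6 arrays 2 were called higher, and without day 0 replicate 2 there were 3. Tubb3, the neuronal beta-tubulin, had 12.81, 12.99 and 12.14 at day 7, against 7.38, 6.66 and 8.62 at day 0 (5.09 ± 0.58, limma adjusted p = 1.3e-05), and Tubb2a was 3.34 ± 0.28 higher. Tuba4a, an alpha-tubulin without the terminal tyrosine, had 6.55, 6.74 and 6.58 at day 7, against 12.84, 12.41 and 12.69 at day 0 (-6.02 ± 0.28, limma adjusted p = 3.1e-09). Tubb6 fell by 3.56 ± 0.35. Tuba1a and Tubb2b, already well above background in ES cells, were 1.19 ± 0.16 and 1.09 ± 0.17 higher, calls that were lost without day 0 replicate 2 and in the fit to 6 arrays. Of 34 microtubule-associated and axonal motor genes, 29 were called higher and 2 lower (median 3.61), 27 of them higher in the fit to 6 arrays. Map2, the dendritic microtubule-associated protein, had 12.36, 12.58 and 12.54 at day 7, against 5.99, 6.42 and 6.66 at day 0 (6.14 ± 0.31), Mapt (tau) was 5.88 ± 0.30 higher, and Stmn4, a stathmin, was at least 52.8-fold higher.

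Of 17 intermediate filament and lamin genes, 6 were called higher and 6 lower (35.3% each, beside 16.7% and 16.1% of all genes). In the fit to 6 arrays 3 were called higher and 1 lower. Nefm, the medium neurofilament chain, had 10.96, 11.19 and 10.51 at day 7, against 2.33, 2.33 and 2.88 at day 0, at least 118-fold higher, and Nefl was 4.42 ± 0.40 higher. The simple epithelial keratins went down, with Krt18 at 4.16 ± 1.02 at day 7 and 10.44 ± 1.25 at day 0 (mean ± SD, n = 3 each; difference -6.28 ± 0.83), and Krt8 at -6.39 ± 1.29. The calls of both keratins were lost in the fit to 6 arrays, and that of Krt8 without day 7 replicate 3. Lmna, which encodes lamins A and C, fell by 3.60 ± 0.34. Of 46 actin cytoskeleton genes, 7 were called higher, 7 lower and 1 in both directions, each close to the shares of all genes (median -0.37, or 0.17 centred on the reference genes). Tpm2, a tropomyosin, had 2.82, 3.40 and 2.88 at day 7, against 10.64, 10.57 and 10.52 at day 0, at least 95.5-fold lower, and Myh9, non-muscle myosin IIA, fell by 3.52 ± 0.22. Dbn1, drebrin, the actin-binding protein of growth cones and spines, had 10.29, 10.83 and 10.12 at day 7, against 5.56, 5.21 and 6.39 at day 0 (4.70 ± 0.39). The gene called in both directions was Tln1, talin, with its brightest probe set lower (-2.73 ± 0.71) and another higher (3.61 ± 0.47), so that its direction was not settled. The lower call was lost without any single array other than day 0 replicate 2. Of 13 spectrin and ankyrin skeleton genes, 6 were called higher (46.2%, beside 16.7% of all genes) and 2 lower (15.4%, beside 16.1%). Add2, beta-adducin, was at least 28.9-fold higher and Ank2 was 3.11 ± 0.19 higher.

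Genes of vesicle release rose. Of 37 synaptic vesicle and secretory granule genes, 34 were called higher and none lower (median 3.63), 25 of them in the fit to 6 arrays. Syt1, the calcium sensor of vesicle release, had 9.40, 9.10 and 9.41 at day 7, against 2.78, 3.13 and 3.12 at day 0, at least 39.5-fold higher (limma adjusted p = 2.3e-11). Chgb, chromogranin B of dense-core granules, had 13.00, 12.41 and 10.91 at day 7, against 3.57, 3.18 and 3.16 at day 0, at least 276-fold higher, with day 7 replicate 5 the lowest of its group. Sncg, gamma-synuclein, was at least 224-fold higher, and Scg3, secretogranin III, at least 144-fold higher. Of 14 ion pump and cotransporter genes, 6 were called higher (42.9%, beside 16.7% of all genes), 1 lower (7.1%, beside 16.1%) and 1 in both directions. Slc12a5, the neuronal potassium-chloride cotransporter KCC2, had 9.10, 9.05 and 10.53 at day 7, against 3.57, 3.91 and 3.56 at day 0, at least 47.2-fold higher, and Slc8a1, a sodium-calcium exchanger, was at least 28.6-fold higher.

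Of 14 stress genes, 7 were called lower and 1 higher (median -1.82), with 3 lower in the fit to 6 arrays. Hspb1, the small heat shock protein Hsp27, had 2.53, 2.59 and 2.65 at day 7, against 12.10, 11.81 and 12.79 at day 0, at least 301-fold lower. Trib3, a pseudokinase of the integrated stress response, fell by 4.15 ± 0.79. Jun, by contrast, was 3.44 ± 0.46 higher, and Hmox1, heme oxygenase, fell by 3.76 ± 0.48. Both of these calls were lost in the fit to 6 arrays.

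Pairs of related genes, in which 1 member is widely expressed and the other favoured by neurons or another tissue, did not share 1 pattern of change. In 24 pairs, chosen with earlier results of these data known, the differences of both members were set side by side. Hk2 and Hk1 differed by -1.68 and 1.41, Tubb6 and Tubb2b by -3.56 and 1.09, and Syngr2 and Syngr1 (synaptogyrins) by -2.50 and 1.64, each called in opposite directions. The call of Syngr1 ended without day 0 replicate 1 or 3 or day 7 replicate 3 or 5, and both synaptogyrins lost theirs in the fit to 6 arrays. Kif5b and Kif5c, kinesin heavy chains, differed by -1.12 and 3.65, with Kif5b called lower on another of its probe sets. Slc25a5 and Slc25a4, the mitochondrial ADP/ATP carriers, differed by -0.27 and 1.27, with Slc25a5 called lower on another probe set and Slc25a4 not called in the fit to 6 arrays. In a further set the widely expressed member was not called and the other rose. Atp6v1g1 and Atp6v1g2 differed by -0.05 and 7.00, Dnm2 and Dnm1 (dynamins) by 0.56 and 3.63, Vamp3 and Vamp2 (vesicle SNAREs) by 0.31 and 3.37, Tubb5 and Tubb3 by 0.81 and 5.09, and Pfn1 and Pfn2 (profilins) by -0.47 and 2.30. Cfl1 and Cfl2 differed by -0.10 and 1.21, and Pfkl and Pfkm by 0.71 and 1.18. Pfn2 and Cfl2 were not called in the fit to 6 arrays. Mapre1 and Mapre3 differed by 0.44 and 3.57, both called higher, Mapre1 on another probe set. Ctps (-0.81) was not called, and Ctps2 (-0.04) was called higher on another probe set. Eef1a1 and Eef1a2 differed by 0.08 and 0.49, and Ldha and Ldhb by 0.74 and -0.23, with no member called. Nor was any called in Atp1b3 and Atp1b2, Cpt1a and Cpt1c, Eif4a1 and Eif4a2, or Aldoa and Aldoc. Slc2a3 was called lower (-1.35), and Slc2a1 (-0.47) was not called. Bcat2, Actn4 and Kpna2 were called lower, and their partners Bcat1, Actn2 and Kpna1 were not called. Slc2a3, Actn4 and Kpna2 were not called in the fit to 6 arrays. Near-identical paralogs can share probes, so that a small change in 1 member is uncertain.

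**Figure D4:**
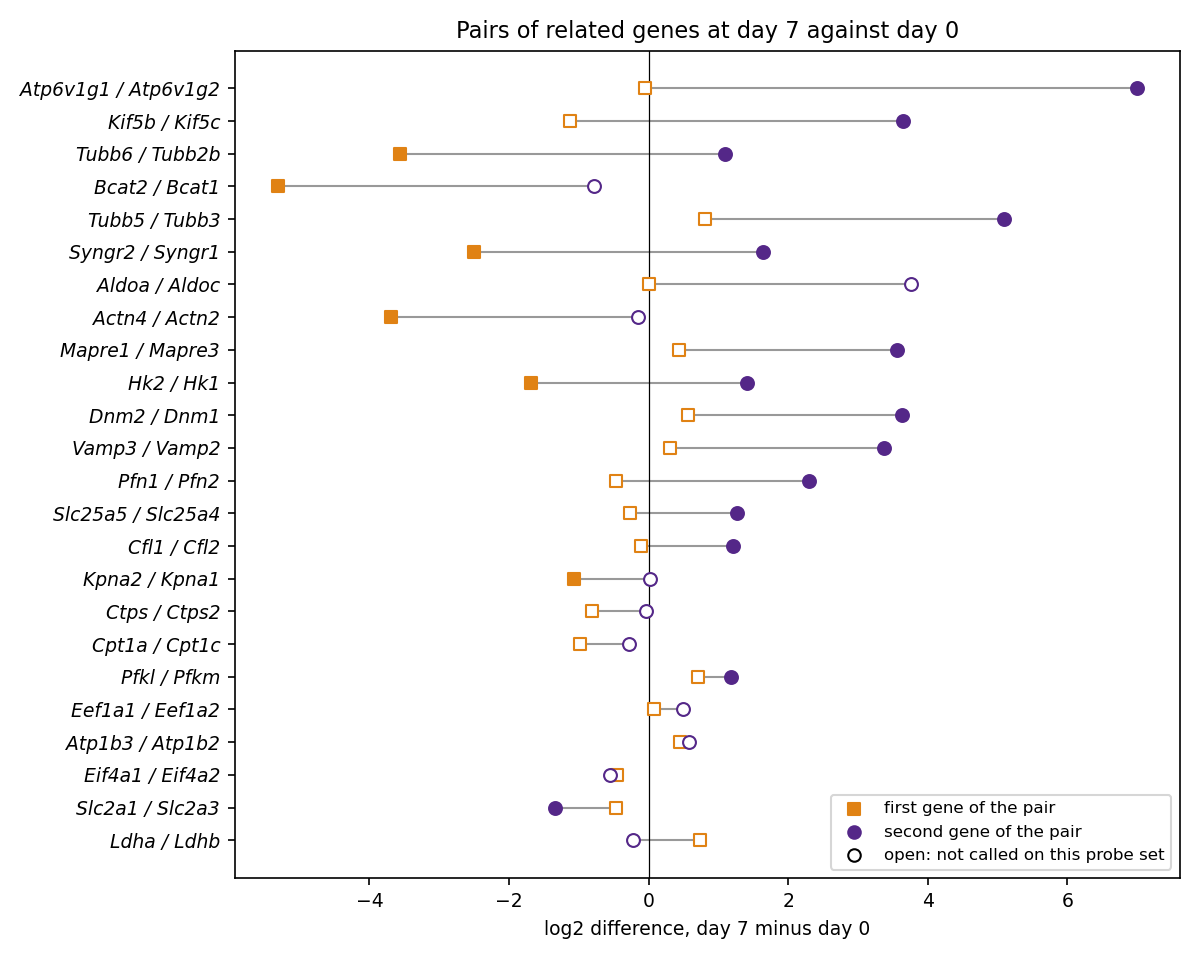
Log2 difference, day 7 minus day 0, of both members of each of the 24 pairs, with the first-named gene as orange squares and the second as purple circles, open where this probe set was not called. Hk2 and Hk1, Tubb6 and Tubb2b, and Syngr2 and Syngr1 lie on opposite sides of 0, and Atp6v1g2 lies 7.00 above 0 beside Atp6v1g1 at -0.05.

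The intermediate stages place these end point differences in time. The values that follow are median differences from day 0 at day 2, at day 2 with 8 h of RA, at day 3, at day 4 and at day 7, and since all of them share the day 0 arrays they are given as a description. The pluripotency median was -1.65, -2.41, -6.10, -7.69 and -7.77, so that nearly the whole measurable fall was reached by day 4. The median signal of these genes was 2.8 to 3.0 on the day 7 arrays, under background, where a further fall cannot register. The epithelial junction median was -0.09, -0.23, -1.06, -2.09 and -3.67, a gradual fall. The DNA replication median was 0.07, 0.09, 0.03, -0.20 and -2.38, and the mitosis median -0.01, 0.10, -0.12, -0.18 and -2.70, with nearly all of the fall after day 4. Ribosome biogenesis stood at 0.19, -0.05, -0.43, -0.80 and -1.83, and nucleotide synthesis at 0.20, 0.25, -0.03, -0.26 and -1.25. The neural progenitor median was 0.22, 1.08, 3.03, 4.12 and 2.72 and was thus highest at day 4. The pan-neuronal median was 0.23, 0.49, 0.15, 1.93 and 5.60, and the synaptic median 0.01, 0.05, 0.06, 0.41 and 3.63, with most of the synaptic change after day 4. Cholesterol synthesis stood apart, at 1.53, 1.57, 1.03, 1.15 and 0.86, with its highest medians at day 2, before and after RA. The oxidative phosphorylation median lay between -0.12 and 0.30 and the ribosomal protein median between -0.18 and 0.01 at these stages.

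**Figure D5:**
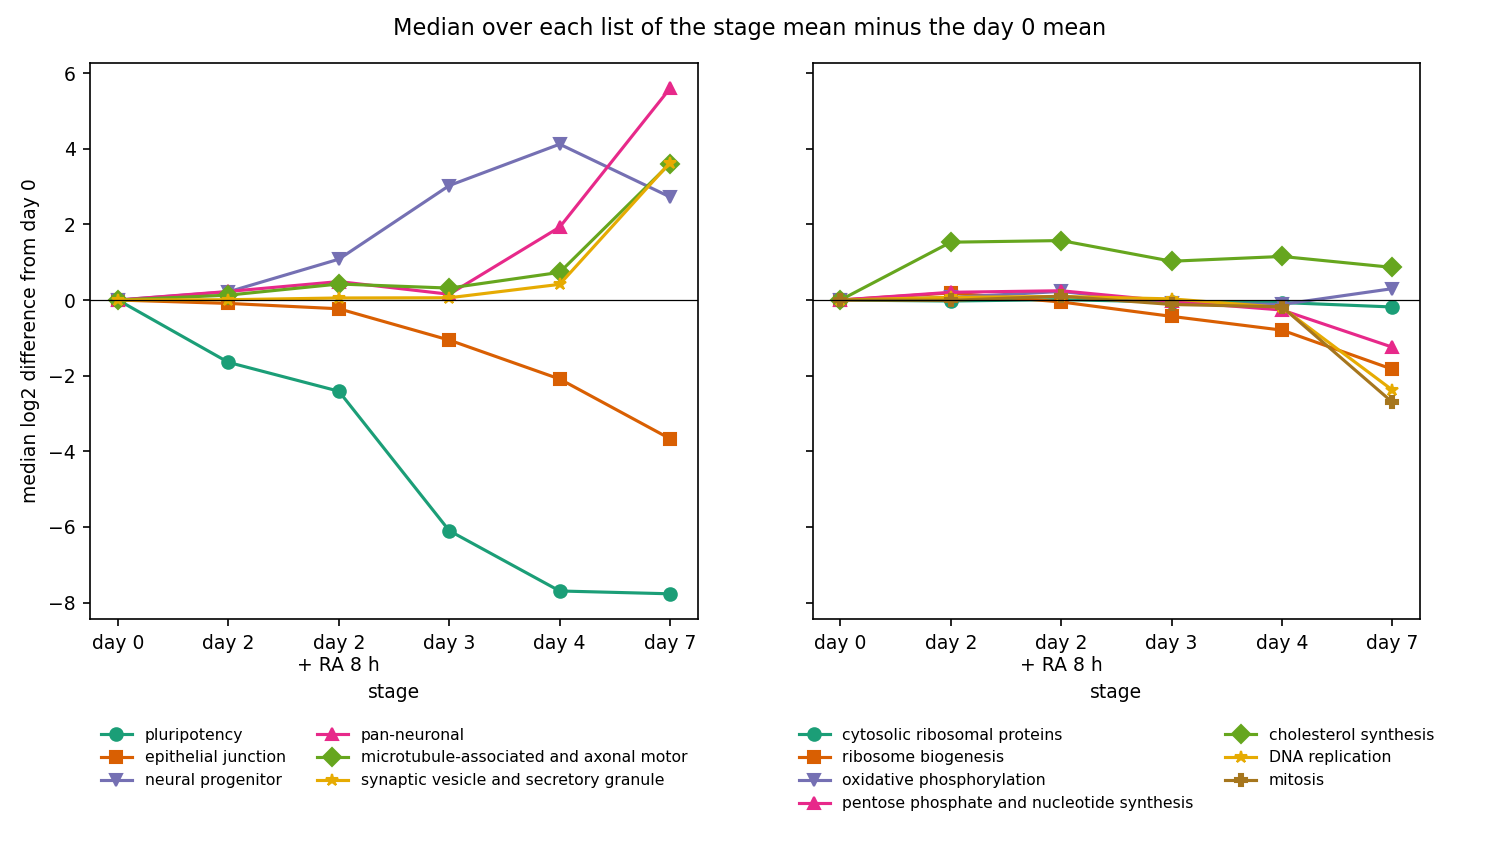
Median log2 difference from day 0 of the members of selected lists at day 0, day 2, day 2 with 8 h of RA, day 3, day 4 and day 7, 1 line per list in 2 panels with the same axis. Pluripotency genes fell by day 4, whereas the replication and mitosis medians lay between -0.20 and 0.10 up to day 4 and stood at -2.38 and -2.70 at day 7.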

How the data were processed

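RNA of 18 samples, amplified with the NuGEN Ovation kit, was measured on Affymetrix mouse expression arrays. The authors deposited log2 signals per probe set, made with GCRMA across all arrays, and tool versions are not given in the sources used here. GCRMA includes quantile normalization, so that differences are relative. Arrays have no read depth, and their number limits the precision. Control probe sets were left out. Gene names come from the platform annotation, probe sets with several symbols or none were counted but not named, and genes lacking a probe set with 1 symbol were not analysed here.

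limma 3.58.1 in R 4.3.3 (lmFit, eBayes) fitted 6 group means to 18 arrays, with 12 residual and 0.515 prior degrees of freedom and Benjamini-Hochberg adjustment over 45037 probe sets. Calls needed an adjusted p under 0.01 and at least a 2-fold change. SE and 95% intervals come from this fit, whose spread pools all stages. Which cultures were shared is not stated, so that p-values measure the spread between these arrays. The fit was tested on simulated data, but no outcome of that test is given here and no result rests on it. Members, 44 gene lists (1005 genes, 30 in more than 1 list) and 24 gene pairs were chosen with earlier results of these data known. Genes to name were drawn from the 10 largest rises and falls, up to 4 called genes per list and direction, reference genes, pairs and defining markers. Not all of these are given in the text. The 250 bases before each RefSeq start (GRCm38.p6) were searched, and 14452 of 18193 genes had a promoter there. Alternatives were the 6 arrays alone, trend and robust moderation, other scalings, filters, probe set rules and thresholds, and leaving out each array. Python 3.11.15 with pandas 2.3.3 and matplotlib 3.10.9 made the counts and figures.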

Additional observations from a re-analysis of the deposited data

How the results depend on the processing

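With only the 6 day 7 and day 0 arrays in the fit, 3413 genes were called in 1 direction, 1742 higher and 1671 lower, and 3351 of them were called in the same direction in the fit to 18 arrays, which called 5969. Fewer samples then estimate the spread. Of 251 named genes that were called, 93 lost their call there. With the arrays centred on the 16 reference genes, 4685 genes were called higher at day 7 and 67.8% of the called genes were higher, against 50.8% with the values as deposited. The shift of day 7 against day 0 by that centring is the mean of those genes, -0.54, against 0.07 for the median of all probe sets and -0.14 for that of bright probe sets. With at least 4-fold required, 1895 genes were called lower. Without single arrays the number called ran from 5337 (without day 7 replicate 3) to 5801 (without day 0 replicate 3), with 2741 to 2877 higher and 2596 to 3000 lower, and 14 to 21 of the 251 named genes lost their call each time. Averaging the probe sets of a gene lost 18 of the named calls and turned Tln1 to 0.34 (limma adjusted p = 0.54), since it averages a probe set called lower with one called higher. Raising values to background lost 11, centring on the reference genes 17 and the 4-fold limit 49, while each of the other alternatives lost 0 to 6. No paired analysis was possible because day 7 and day 0 share only 1 replicate number. Signals under background set no level, so that changes of genes near it are bounds.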
